A study of Mus musculus with 32 samples.

Results

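The cornified envelope genes described here are 33 mouse genes of the outermost epidermal layers. They comprise 12 late cornified envelope genes of the LCE1 family, 6 of the LCE3 family, the structural precursors Lor, Ivl and Cnfn, the transglutaminases Tgm1, Tgm3 and Tgm5, the corneodesmosome genes Cdsn, Dsg1a, Dsg1b and Dsc1, the proteases Casp14, Asprv1 and Blmh, and the claudins Cldn1 and Cldn23. They were chosen by symbol and not by measured values. All 33 were found, each on exactly 1 of the 22206 rows that were tested, and none shared its values with another row. Expression was measured on 32 Affymetrix arrays, 1 per sample, from skin punches of NC/Nga mice, an inbred strain that is prone to dermatitis. The groups were sham back skin, HDM back skin, sham ear and HDM ear, with 8 mice in each, and back skin means dorsal skin. All mice were of the NC/Nga strain, no gene was altered according to the labels, and tissue was taken when the study ended. The labels do not spell out HDM, describe the sham, give the age of the mice or say whether back skin and ear samples of 1 number came from 1 animal. A dermatitis model in punches of whole skin holds follicles, glands, muscle and infiltrating cells beside the epidermis, and the ear also holds cartilage.

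The cornified envelope is a shell of protein and lipid that replaces the plasma membrane of a keratinocyte as it becomes a dead corneocyte. Its assembly starts at desmosomes and the inner membrane face, where early components such as involucrin are laid down, and loricrin and the small late envelope proteins are added afterwards. Transglutaminases join these proteins through covalent bonds, proteases later process filaggrin and other proteins of the layer, and corneodesmosomes hold the dead cells together until they are shed. In human skin, LCE1 genes are known as genes of normal epidermis, and LCE3 genes as genes that are induced after superficial injury and in psoriasis.

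In the RefSeq gene table of assembly GRCm38.p6, 20 of the 33 genes lie in 1 stretch of chromosome 3 that runs from Lor to Lce1m, and 13 lie elsewhere. The LCE1 genes from Lce1a1 to Lce1l come first, the 6 LCE3 genes follow as a block, and Lce1m stands beyond that block, with 1 annotated gene, Crct1, between it and Lce3f. RefSeq start site windows of 300 bases, of which 250 precede the start, were available for 28 of the 33 genes, and the first window was used for the 2 genes that had several. The last 100 bases before the start are shown for 6 genes whose expression moved in different ways, on the strand of each gene and from 5′ to 3′. Capitals mark the hexamer ATAAAA, which resembles the start of a core promoter box. In Lor, capitals also mark a match to the AP-1 consensus TGANTCA.
Lce1g, chr3:92752339-92752438, minus strand, higher in HDM back skin: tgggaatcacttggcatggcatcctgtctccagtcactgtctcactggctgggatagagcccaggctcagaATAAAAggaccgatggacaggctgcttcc
Lce1l, chr3:92851287-92851386, minus strand, lower in HDM at both sites: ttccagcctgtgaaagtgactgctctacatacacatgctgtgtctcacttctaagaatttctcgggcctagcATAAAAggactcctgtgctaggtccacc
Lce1m, chr3:93019062-93019161, minus strand, lower in HDM at both sites: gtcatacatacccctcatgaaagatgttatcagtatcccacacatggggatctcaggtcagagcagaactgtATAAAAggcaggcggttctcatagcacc
Lce3a, chr3:92926231-92926330, minus strand, higher in HDM at both sites: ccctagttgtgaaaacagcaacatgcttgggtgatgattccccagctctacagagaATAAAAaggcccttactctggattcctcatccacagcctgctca
Lce3c, chr3:92944386-92944485, plus strand, higher in HDM at both sites: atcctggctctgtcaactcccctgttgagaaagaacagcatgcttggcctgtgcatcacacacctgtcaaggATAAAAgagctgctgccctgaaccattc
Lor, chr3:92083143-92083242, minus strand, lower in HDM at both sites: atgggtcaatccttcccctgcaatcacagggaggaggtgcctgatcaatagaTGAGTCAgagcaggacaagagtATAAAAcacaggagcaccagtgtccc

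The hexamer was thus present in front of genes that rose and genes that fell. Searched on both strands of the whole window, ATAAAA was found for 10 of 11 LCE1 genes, 6 of 6 LCE3 genes and 2 of the 11 others with a window, Lor and Tgm3, against 18.5% of all 32851 windows. On the strand of the gene, starting 40 to 20 bases before the start, it was found for 10 of 11 LCE1 genes and 5 of 6 LCE3 genes, against 1.74% of all windows; in Lce3a it starts 44 bases before. TGANTCA, on both strands, was found in 0 of 11 LCE1 and 0 of 6 LCE3 windows and in those of Lor, Ivl and Blmh, against 7.81% of all windows. The longest runs of letters shared by at least 6 LCE1 windows and by at least 4 LCE3 windows were also sought. That these families hold such runs thus follows from the search. ACAGATCTTGTGCT occurred in the windows of Lce1b, Lce1c, Lce1e, Lce1g, Lce1h and Lce1i and in 7 windows of the whole table, and CAAGGATAAAAG, which overlaps the hexamer, in those of Lce3c, Lce3d, Lce3e and Lce3f and in 5 of the whole table. These matches describe letters in a window and were not tested against expression.

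Values are log2 expression levels as deposited, and an array's background is the median of its negative control probes, which lay between 4.43 and 5.38. Differences are HDM minus sham unless stated, ± standard error, and a gene was called when the Benjamini-Hochberg adjusted p of limma over the 22206 rows was under 0.05. Within sham back skin, mice 1 and 2 stood apart in neutrophil and LCE3 means. Their means over 6 measured neutrophil markers were 8.73 and 9.0, against 5.67 to 6.86 on the other 6 arrays, and their LCE3 means were 6.63 and 6.61, against 4.95 to 5.51. Hair shaft and inner root sheath markers averaged 7.31 in mouse 1 and 11.98 in mouse 2, against 12.59 to 16.46 in mice 3 to 8. Mouse 5 stood beside mice 1 and 2 in other values. The LCE1 means of mice 1, 2 and 5 were 11.75, 11.38 and 11.48, against 9.94 to 10.46 in the rest. For Lor these 3 mice had 12.75, 12.65 and 12.71, against 10.94 to 11.98. The alternative without mice 1 and 2 keeps mouse 5. Within HDM ear, neutrophil means ran from 14.52 to 15.98 in mice 1, 2, 5 and 7 and from 9.89 to 11.87 in mice 3, 4, 6 and 8. The basal keratinocyte genes Krt5 and Krt14 were above background on all 32 arrays. Of the cartilage markers, Acan lay between 8.30 and 11.92 on the ear arrays and between 3.76 and 6.02 on those of back skin, while Col2a1 and Matn1 were below background on every array.

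In back skin, 16 of the 33 genes were called higher and 5 called lower under HDM, against 6.18% and 8.56% of all tested rows. In ear, 13 were called higher and 11 lower, against 16.4% and 15.5% of all rows. The LCE3 genes, Cnfn, Casp14, Blmh, Tgm1, Tgm5 and Dsc1 were called higher at both sites, and Lor, Lce1c, Lce1l, Lce1m and Cldn23 lower at both. No gene was called in opposite directions at the 2 sites. The median difference over the 33 genes was 0.61 in back skin and 0.21 in ear, against 0.01 and -0.02 over all rows. Without sham back mice 1 and 2, 17 genes were called higher and 3 lower in back skin, with Lor and Lce1c no longer called.

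**Figure D1:**
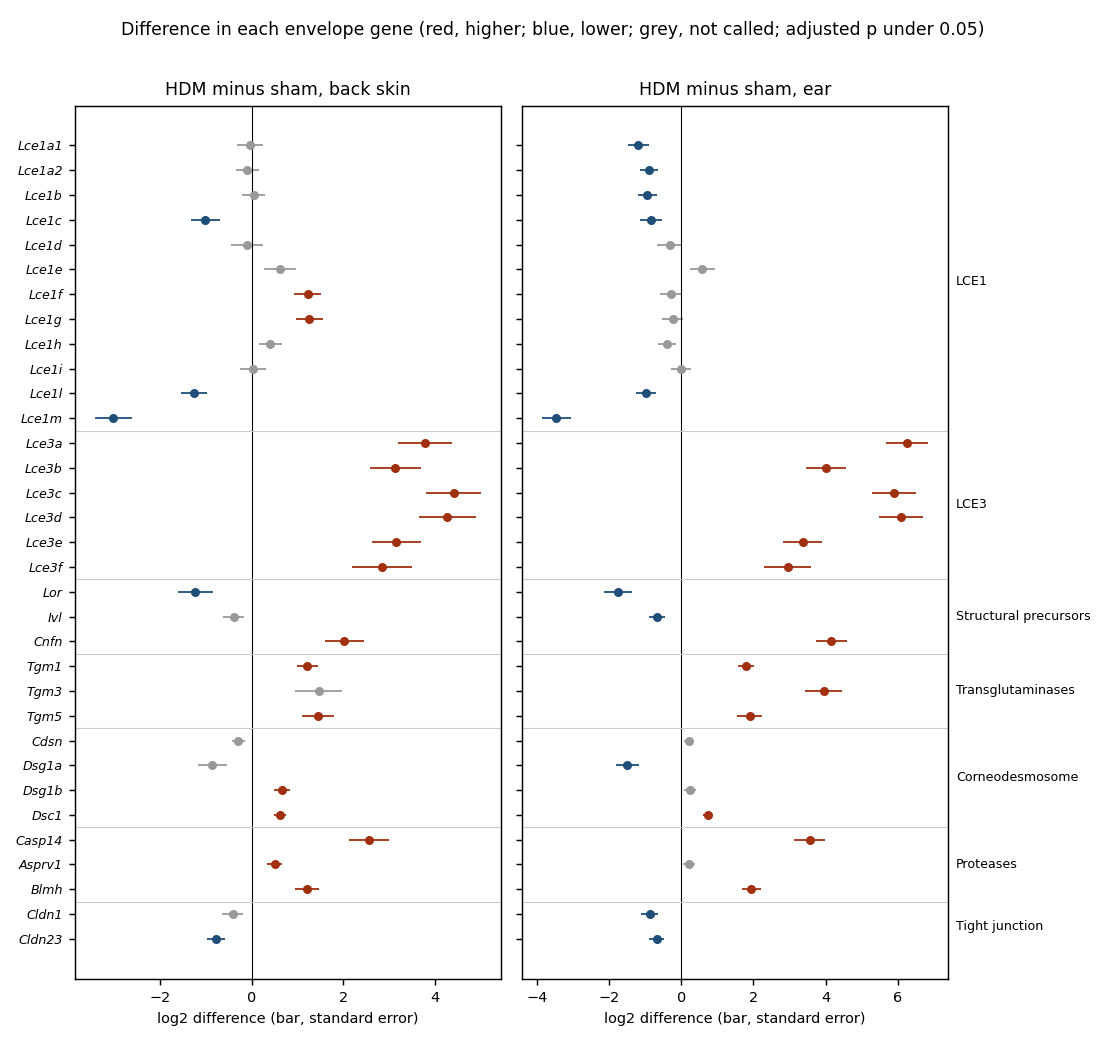
Log2 difference between HDM and sham in back skin (left) and ear (right) for the 33 genes, points with standard errors, from the fit to all 32 arrays with 8 mice per group. Red points were called higher, blue points lower and grey points not, at an adjusted p under 0.05; the fitted LCE3 differences lie at 2.84 or above in both panels, although those of Lce3b, Lce3e and Lce3f are not exact, and Lce1m at -3.03 and -3.46, and the 2 panels have different axis ranges.

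The LCE3 genes rose together at both sites. All 6 were called higher in back skin, with a median difference of 3.48 and a range from 2.84 to 4.41, and all 6 in ear, with a median of 4.95 and a range from 2.95 to 6.25. Of these genes for small envelope proteins, Lce3b, Lce3e and Lce3f were below background on every sham array of both sites, so their fitted differences are not exact. With these 3 at their lower bound, the median was 3.10 with a range from 1.15 to 4.41 in back skin, and 4.06 with a range from 0.72 to 6.25 in ear. Near-identical LCE genes may share probes, so values of single members are uncertain.

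Lce3c lay between 6.73 and 9.77 in sham back skin with a median of 7.45, and between 11.73 and 12.83 in HDM back skin with a median of 12.22. No array of the groups overlapped, and the difference was 4.41 ± 0.61 (adjusted p = 4.3e-06). In ear it lay between 5.80 and 7.68 in sham with a median of 6.88, and between 10.07 and 15.48 in HDM with a median of 12.95, a difference of 5.90 ± 0.61 (adjusted p = 1.18e-08). The 8 HDM ears were spread much more widely than the 8 HDM back samples. Mice 1, 2, 5 and 7 had 14.36, 14.75, 15.48 and 14.46, and mice 3, 4, 6 and 8 had 10.29, 11.17, 11.53 and 10.07, still above every sham ear.

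Lce3d had medians of 7.69 in sham and 12.47 in HDM back skin and of 6.87 in sham and 13.17 in HDM ear. Its differences were 4.28 ± 0.61 in back skin (adjusted p = 8.18e-06) and 6.08 ± 0.61 in ear (adjusted p = 8.62e-09), with every HDM array above every sham array. Lce3a ran from 4.95 to 8.49 in sham back skin with a median of 6.46 and from 9.39 to 11.25 in HDM back skin with a median of 10.31, a difference of 3.79 ± 0.59 (adjusted p = 2.71e-05). In sham ear it was above background in 2 of 8 mice, with values from 4.42 to 6.49, and in HDM ear it ran from 9.55 to 13.70 with a median of 11.38. This gave a difference of 6.25 ± 0.59 (adjusted p = 2.48e-09), again without overlap. With values raised to background it was 5.98 for Lce3a, so its order relative to Lce3c and Lce3d is uncertain.

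For Lce3b, Lce3e and Lce3f only a lower bound of the fold can be given, since the sham arrays carry no signal above background. Lce3b rose at least 4.37-fold in back skin (fitted difference 3.14 ± 0.55, adjusted p = 0.000149) and at least 4.685-fold in ear (4.00 ± 0.55, adjusted p = 1.55e-06), and was above background in 8 of 8 HDM samples at each site. Lce3e rose at least 5.292-fold in back skin (3.16 ± 0.53, adjusted p = 7.69e-05) and at least 3.07-fold in ear (3.36 ± 0.53, adjusted p = 9.17e-06), and 6 of 8 HDM ears were above background. Lce3f rose at least 2.219-fold in back skin (2.84 ± 0.65, adjusted p = 0.00258) and at least 1.649-fold in ear (2.95 ± 0.65, adjusted p = 0.000601), with 4 of 8 HDM ears above background. In ear, the HDM values of Lce3e and Lce3f overlapped those of sham. When dim values were set to the background level, Lce3f had a back skin difference of 1.15 and was no longer called (adjusted p = 0.129).

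In a punch of whole tissue, more cells that express a gene and more RNA per cell cannot be told apart. Neutrophil markers moved in the same comparisons. All 6 measured neutrophil markers were called higher at both sites, and their array means ran from 5.67 to 9.0 in sham back skin, from 10.94 to 12.70 in HDM back skin, from 4.35 to 6.16 in sham ear and from 9.89 to 15.98 in HDM ear. S100a8 and S100a9 of that list are also made by keratinocytes. Among markers of other tissue components, 6 of 7 sebaceous gland genes were called lower in HDM back skin (median difference -2.28). In HDM ear, 7 of 7 skeletal muscle genes were called lower (median -2.39). So were 3 of 6 cartilage genes, 3 of 6 basal keratinocyte genes and 2 of 7 sebaceous gland genes there. In HDM back skin, 1 of 6 basal keratinocyte genes was called lower. Krt14 of the basal list went the other way, called higher by 1.12 in back skin (adjusted p = 7.78e-08) and by 0.41 in ear (adjusted p = 0.00825). In HDM back skin no muscle or cartilage gene was called. Of all rows, 8.56% were called lower in HDM back skin and 15.5% in HDM ear. Beside these shares, 1 of 6 and 2 of 7 genes are too few to read as a change of a whole list. The part of the marker changes in the results for the envelope genes was not tested.

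**Figure D2:**
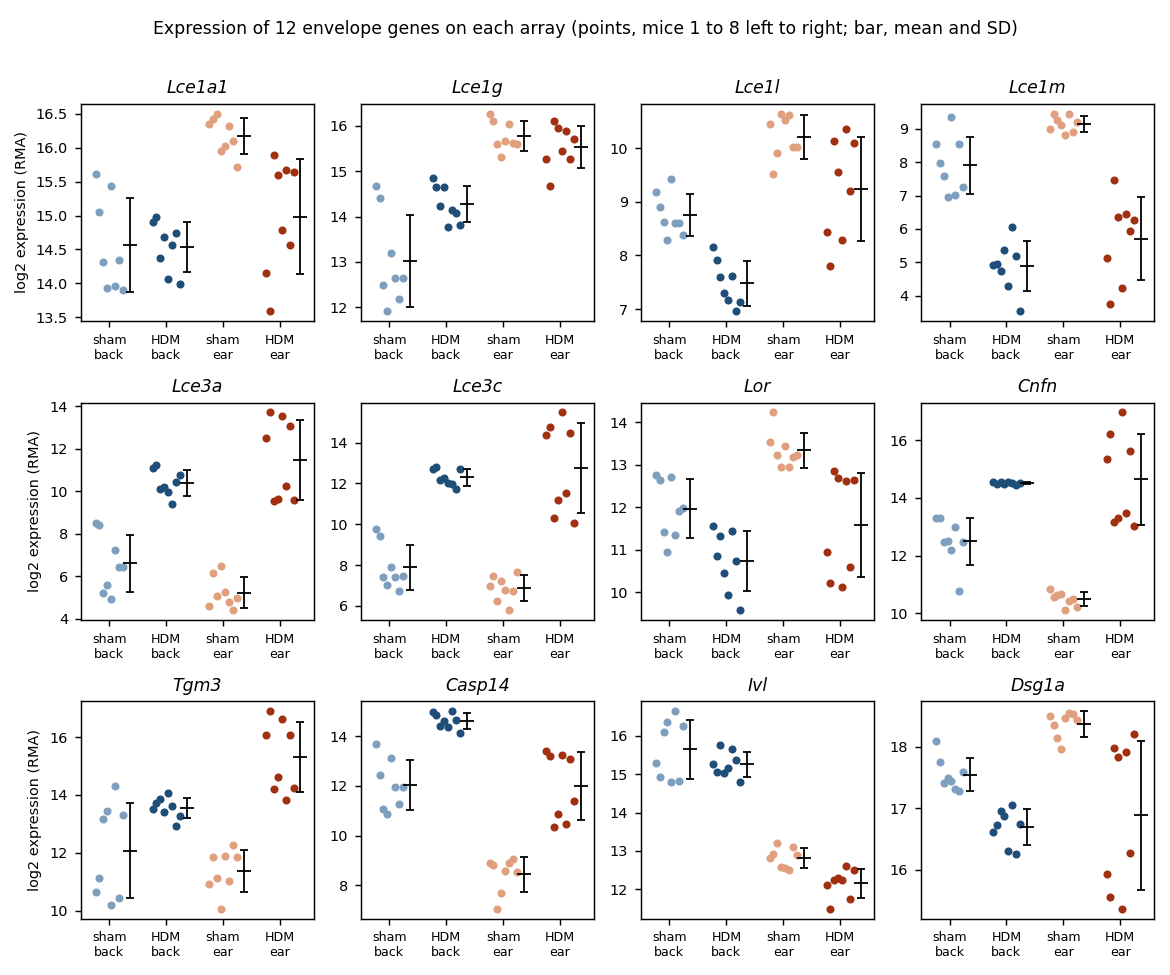
Log2 expression of 12 of the 33 genes on each of the 32 arrays, 1 point per array with mice 1 to 8 from left to right in each group, and the group mean with its SD beside the points (n = 8 mice per group); each panel has its own axis range. Lce3a and Lce3c show no overlap between HDM and sham, HDM ears fall into a high and a low set for Lce3c, Cnfn and Casp14, and Lce1m is lower on every HDM array than on any sham array of the same site.

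The 12 listed LCE1 genes did not move as a block. In back skin, Lce1f and Lce1g were called higher and Lce1c, Lce1l and Lce1m lower, and the median difference over the 12 genes was 0.00. In ear, none was called higher and 6 were called lower, Lce1a1, Lce1a2, Lce1b, Lce1c, Lce1l and Lce1m, with a median of -0.61. Lce1k, an LCE1 gene of the same cluster that is not on the list, was called higher in ear (0.74 ± 0.28, adjusted p = 0.0441). The sham groups also differed, with all 12 LCE1 genes called higher in sham ear than in sham back skin.

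Lce1m changed most. Its values ran from 6.97 to 9.37 in sham back skin with a median of 7.79, and from 3.53 to 6.07 in HDM back skin with a median of 4.93, where 4 of 8 arrays were above background. In ear they ran from 8.82 to 9.46 in sham with a median of 9.16 and from 3.74 to 7.46 in HDM with a median of 6.12, where 6 of 8 were above background. Every HDM array lay below every sham array of its site. Lce1m fell by 3.03 ± 0.40 in back skin (adjusted p = 2.67e-06) and by 3.46 ± 0.40 in ear (adjusted p = 1.1e-07). Because some HDM values lie under background, the size of these differences is uncertain.

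Lce1l, the last LCE1 gene before the LCE3 block, ran from 8.29 to 9.43 in sham back skin and from 6.96 to 8.16 in HDM back skin, without overlap, and fell by 1.27 ± 0.28 (adjusted p = 0.00213). In ear it ran from 9.52 to 10.64 in sham and from 7.81 to 10.35 in HDM, with overlap, and fell by 0.97 ± 0.28 (adjusted p = 0.00791). Lce1c fell by 1.01 ± 0.31 in back skin (adjusted p = 0.0252), from a median of 8.13 to one of 7.36, and this call was lost without sham back mice 1 and 2 (-0.93, adjusted p = 0.0646). In ear Lce1c had medians of 9.61 in sham and 8.86 in HDM and an adjusted p of 0.0396, which rose to 0.0703 when only the 16 ear arrays were fitted.

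Lce1a1, Lce1a2 and Lce1b lie close together at the start of the family and fell in ear but were not called in back skin. The direct limma test of the HDM effect in ear minus that in back skin called none of them. Its adjusted p was 0.0609 for Lce1a1, 0.163 for Lce1a2 and 0.0808 for Lce1b. Lce1a1 ran from 15.71 to 16.50 in sham ear with a median of 16.21 and from 13.59 to 15.89 in HDM ear with a median of 15.19, and fell by 1.19 ± 0.28 (adjusted p = 0.00135). All 8 HDM ears were below the sham mean, and the lowest were mice 1, 2, 5 and 7, at 14.15, 13.59, 14.79 and 14.56. Its back skin difference was -0.03 ± 0.28. Lce1a2 fell by 0.89 ± 0.25 in ear (adjusted p = 0.00653) and Lce1b by 0.94 ± 0.25 (adjusted p = 0.00441), with back skin differences of -0.09 ± 0.25 and 0.04 ± 0.25.

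Lce1f and Lce1g rose in back skin. Lce1f ran from 11.49 to 14.11 in sham back skin with a median of 12.24 and from 13.17 to 14.50 in HDM back skin with a median of 13.74, a difference of 1.22 ± 0.30 (adjusted p = 0.00525). Lce1g ran from 11.91 to 14.68 in sham with a median of 12.64 and from 13.76 to 14.85 in HDM with a median of 14.19, a difference of 1.26 ± 0.29 (adjusted p = 0.00311). Both pairs of groups overlapped, for Lce1g through sham mice 1 and 2, which had 14.68 and 14.40. In ear the differences were -0.28 ± 0.30 for Lce1f and -0.24 ± 0.29 for Lce1g, and neither was called.

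The remaining LCE1 genes, Lce1d, Lce1e, Lce1h and Lce1i, were called at neither site. Lce1e had 0.61 ± 0.34 in back skin and 0.58 ± 0.34 in ear, and reached the threshold in back skin when sham mice 1 and 2 were left out (0.99, adjusted p = 0.0436). Lce1h had 0.41 ± 0.26 in back skin and -0.39 ± 0.26 in ear. Lce1d had -0.10 ± 0.35 and -0.32 ± 0.35, and Lce1i 0.03 ± 0.28 and -0.01 ± 0.28. All LCE1 genes other than Lce1m were above background on every array.

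Read along chromosome 3, the nearest LCE1 genes on either side of the LCE3 block differed from it in direction. Between Lce1l and Lce3a lies 1 annotated gene, and between Lce3f and Lce1m lies Crct1. Lce1l on 1 side had -1.27 in back skin and -0.97 in ear, Lce3a to Lce3f had fitted differences of 2.84 to 4.41 and 2.95 to 6.25, and Lce1m on the other side, beyond Crct1, had -3.03 and -3.46. Crct1, a gene for a cysteine-rich protein that is no member of the list, had -0.06 ± 0.15 in back skin and rose by 0.80 ± 0.15 in ear (adjusted p = 9.88e-05). Position in the cluster is given as a description, and no test of it was made.

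**Figure D3:**
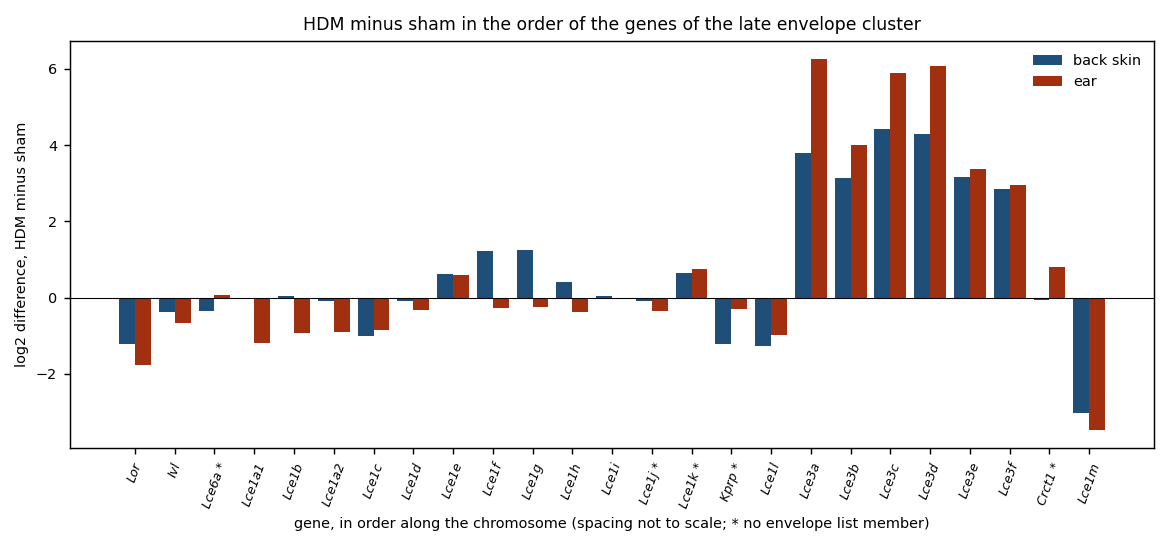
Log2 difference between HDM and sham in back skin (blue bars) and ear (red bars) for 25 genes in their order along chromosome 3 in RefSeq, at equal spacing, with genes of neither list, among them 23 between Lor and Ivl, not drawn. An asterisk marks genes outside the list of 33; the fitted differences of the 6 LCE3 genes stand at 2.84 or above and are flanked by Lce1l and, beyond Crct1, Lce1m below 0.

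The structural precursors split. Loricrin (Lor), the most abundant envelope protein of mouse epidermis, fell at both sites, involucrin (Ivl), an early scaffold protein, fell in ear, and cornifelin (Cnfn), an envelope component known to be raised in psoriasis, rose at both. Lor ran from 10.94 to 12.75 in sham back skin with a median of 11.95 and from 9.58 to 11.56 in HDM back skin with a median of 10.79, with overlap, and fell by 1.23 ± 0.38 (adjusted p = 0.027). Without sham back mice 1 and 2, the difference was -0.99 and was not called (adjusted p = 0.111). In ear Lor ran from 12.95 to 14.23 in sham with a median of 13.23 and from 10.12 to 12.85 in HDM with a median of 11.79, without overlap, and fell by 1.76 ± 0.38 (adjusted p = 0.000547). HDM ears 1, 2, 5 and 7 had 10.95, 10.22, 10.12 and 10.60, and HDM ears 3, 4, 6 and 8 had 12.62 to 12.85, so that the first 4 stood well below every sham ear and the other 4 just below.

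Ivl had medians of 15.71 in sham and 15.21 in HDM back skin, with a difference of -0.39 ± 0.23 that was not called (adjusted p = 0.288). In ear its medians were 12.86 in sham and 12.24 in HDM, all 8 HDM values lay below the sham mean, and Ivl fell by 0.67 ± 0.23 (adjusted p = 0.0242).

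Cnfn ran from 10.78 to 13.31 in sham back skin with a median of 12.48, and its 8 HDM back values lay within 14.46 to 14.57. The groups did not overlap, and the difference was 2.02 ± 0.42 (adjusted p = 0.00104). In ear it ran from 10.11 to 10.84 in sham with a median of 10.53 and from 13.02 to 16.97 in HDM with a median of 14.42, a difference of 4.16 ± 0.42 (adjusted p = 9.37e-09) without overlap. As for the LCE3 genes, HDM ears 1, 2, 5 and 7 were the highest, at 15.37, 16.22, 16.97 and 15.64.

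All 3 transglutaminases were called higher in ear, and Tgm1 and Tgm5 also in back skin. Tgm1 encodes the membrane-anchored enzyme that cross-links the envelope and joins ceramides to it. It had medians of 13.59 in sham and 14.76 in HDM back skin and of 12.54 in sham and 14.39 in HDM ear, without overlap at either site, and rose by 1.21 ± 0.23 (adjusted p = 0.00031) and 1.80 ± 0.23 (adjusted p = 3.63e-07). Tgm5, a second epidermal transglutaminase, rose by 1.44 ± 0.35 in back skin (adjusted p = 0.00437), with overlap, and by 1.89 ± 0.35 in ear (adjusted p = 7.51e-05), without overlap. The highest Tgm5 value of sham back skin was 9.71, above every HDM back value.

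Tgm3, which acts late in envelope assembly and is also an enzyme of the hair follicle, spread from 10.20 to 14.31 in sham back skin with a median of 12.15 and from 12.94 to 14.07 in HDM back skin with a median of 13.56. The difference of 1.46 ± 0.52 was not called (adjusted p = 0.0517), although all 8 HDM arrays lay above the sham mean; it passed the threshold with array medians made equal, with dim rows left out or with array weights by group (adjusted p = 0.0344, 0.0355 and 0.0407). Under the other alternatives Tgm3 was not called, with adjusted p from 0.0521 to 0.0707 and, without sham back mice 1 and 2, a difference of 1.07 (adjusted p = 0.20). Sham back mice 1, 2, 5 and 7, at 10.65, 11.14, 10.20 and 10.44, were low, and mice 3, 4, 6 and 8 had 13.16 to 14.31. The same 4 low arrays had the lowest hair shaft and inner root sheath means of the group, 7.31, 11.98, 12.59 and 14.30, against 16.15 to 16.46; none of the 14 measured hair genes was called between HDM and sham back skin, and their part in the Tgm3 values was not tested. In ear, where the hair means were 3.92 to 6.73 in sham and 3.67 to 5.15 in HDM, Tgm3 ran from 10.07 to 12.27 in sham and from 13.82 to 16.89 in HDM, a difference of 3.94 ± 0.52 (adjusted p = 6.8e-07) without overlap.

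The corneodesmosome genes moved in both directions, with 2 called higher and none lower in back skin and 1 called higher and 1 lower in ear. Corneodesmosin (Cdsn), the glycoprotein of these junctions, was called at neither site, with -0.29 ± 0.15 in back skin and 0.21 ± 0.15 in ear. Desmocollin 1 (Dsc1), a desmosomal cadherin of the upper epidermis, rose by 0.62 ± 0.14 in back skin (adjusted p = 0.00161) and by 0.75 ± 0.14 in ear (adjusted p = 5.52e-05).

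The desmoglein 1 genes, which encode cadherins of the same junctions and are close copies of each other, gave different results. Dsg1a ran from 17.28 to 18.10 in sham back skin and from 16.25 to 17.05 in HDM back skin, without overlap, yet its difference of -0.86 ± 0.31 was not called (adjusted p = 0.0569) in the fit that pools the spread of all 4 groups. It was called when only the 16 back skin arrays were fitted (adjusted p = 0.000484). In ear Dsg1a fell by 1.49 ± 0.31 (adjusted p = 0.000286), with HDM mice 1, 2, 5 and 7 at 15.93, 15.56, 15.36 and 16.27 and mice 3, 4, 6 and 8 at 17.83 to 18.21, against 17.97 to 18.55 in sham. Dsg1b rose by 0.66 ± 0.16 in back skin (adjusted p = 0.00531) and had 0.25 ± 0.16 in ear, where it was not called. Probes that such copies share make the values of each uncertain.

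Of the proteases, all 3 were called higher in back skin and 2 in ear. Caspase 14 (Casp14), which takes part in the breakdown of filaggrin, ran from 10.86 to 13.70 in sham back skin with a median of 11.96 and from 14.12 to 15.00 in HDM back skin with a median of 14.62, a difference of 2.57 ± 0.44 (adjusted p = 9.5e-05). In ear it ran from 7.06 to 9.07 in sham with a median of 8.70 and from 10.34 to 13.41 in HDM with a median of 12.23, a difference of 3.56 ± 0.44 (adjusted p = 2.63e-07). The groups did not overlap at either site. Bleomycin hydrolase (Blmh), which degrades filaggrin peptides further, rose by 1.22 ± 0.26 in back skin (adjusted p = 0.00146) and by 1.95 ± 0.26 in ear (adjusted p = 1.07e-06), also without overlap. Asprv1, the skin aspartic protease that cleaves profilaggrin, rose by 0.50 ± 0.16 in back skin (adjusted p = 0.0371), a call that was lost when only the 16 back skin arrays were fitted (adjusted p = 0.0661), and had 0.22 ± 0.16 in ear.

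The claudins, which seal the tight junctions of the granular layer below the cornified cells, were lower or not called. Cldn23 ran from 8.18 to 8.98 in sham and from 7.24 to 8.63 in HDM back skin and fell by 0.78 ± 0.20 (adjusted p = 0.00749). In ear Cldn23 fell by 0.68 ± 0.20 (adjusted p = 0.00862), and at each site 7 of 8 HDM arrays were below the sham mean. Cldn1, the main barrier-forming claudin of the epidermis, had -0.42 ± 0.23 in back skin, which was not called, and fell by 0.88 ± 0.23 in ear (adjusted p = 0.0027). HDM ears 1, 2, 5 and 7 had 14.55, 14.39, 14.78 and 15.06 for Cldn1, and mice 3, 4, 6 and 8 had 15.83 to 16.37, against 16.09 to 16.55 in sham.

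Early and late components did not separate by direction. Of the 6 early genes, Ivl, Tgm1, Tgm5, Dsg1a, Dsg1b and Dsc1, 4 were called higher and none lower in back skin, and 3 higher and 2 lower in ear, with median differences of 0.64 and 0.50. Of the 7 late genes other than the LCE families, Lor, Cnfn, Tgm3, Cdsn, Casp14, Asprv1 and Blmh, 4 were called higher and 1 lower at each site, with medians of 1.22 and 1.95. Of all rows, 6.18% were called higher and 8.56% lower in back skin, and 16.4% and 15.5% in ear. The 1 late gene called lower, 14.3% of the 7, was thus near the share of all rows in ear. The late genes held both the largest rise outside the LCE families, Cnfn in ear, and the largest fall, Lor in ear.

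Variation among the 8 HDM ears ran through many of these genes. Their LCE3 means were 11.13, 11.59, 12.33 and 11.11 in mice 1, 2, 5 and 7 and 7.13, 7.76, 8.10 and 7.38 in mice 3, 4, 6 and 8. On the former arrays the LCE1 means were lower, 10.73 to 11.48, than on the latter, 12.22 to 12.58. The transglutaminase means were 13.22 to 13.91 on the former and 11.87 to 12.31 on the latter. The neutrophil marker means split the same mice, 14.52 to 15.98 against 9.89 to 11.87, and basal keratinocyte means were 14.92 to 15.46 against 16.17 to 16.37. In HDM back skin no such split was seen, and LCE3 means lay between 8.60 and 9.70. These sets of mice were seen in the values and have no label, and no comparison between them was tested.

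**Figure D4:**
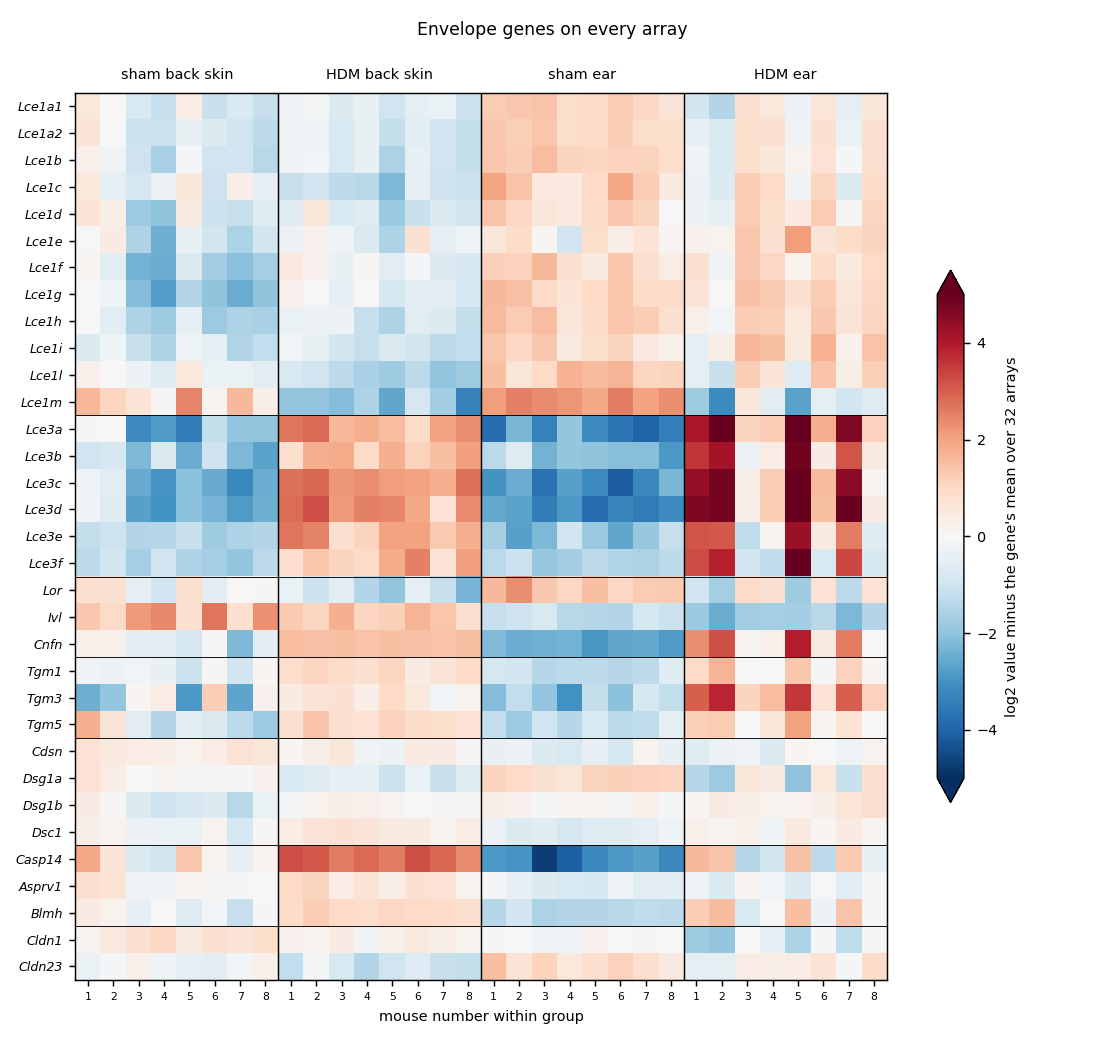
Log2 value minus the mean of the gene over the 32 arrays, for 33 genes in rows and arrays in columns, with lines between groups of samples and groups of genes. Colours run from blue (lower) to red (higher) and stop at 5 in each direction. Among HDM ears, mice 1, 2, 5 and 7 are the reddest for LCE3, Cnfn and Tgm3 and blue for Lor, Dsg1a and Cldn1. LCE1 rows are mostly red in sham ear, although Lce1e is blue in sham ear mouse 4.

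The difference between the HDM effects of the 2 sites was tested directly as ear minus back skin, a comparison that uses all 4 groups and so shares its arrays with those above. For 2 of the 33 genes (6.06%) the effect was called higher in ear and for 2 (6.06%) lower, against 6.77% and 3.37% of all rows. The effect on Cnfn was higher in ear by 2.13 ± 0.60 (adjusted p = 0.0189) and that on Tgm3 by 2.48 ± 0.73 (adjusted p = 0.0259). The effect on Lce1f was lower in ear, with -1.50 ± 0.43 (adjusted p = 0.022), as was that on Lce1g, with -1.49 ± 0.42 (adjusted p = 0.0182). None of the LCE3 differences was called; the nearest was Lce3a with 2.46 ± 0.84 (adjusted p = 0.0558), and Lce3c had 1.49 ± 0.86. Lce3a passed the threshold with dim rows left out, with values raised to background and with array weights by group (adjusted p = 0.0382, 0.0262 and 0.047). Lce1a1 was called lower with array medians made equal, dim rows left out and values raised to background (adjusted p = 0.0294, 0.044 and 0.0155). Lce1b was called lower with medians equal and with values raised (adjusted p = 0.0392 and 0.0225). Without sham back mice 1 and 2, Cnfn was no longer called (1.86, adjusted p = 0.0543), 1 gene was called higher and 7 were called lower. The 7 were Lce1f, Lce1g, Lce1a1, Lce1a2, Lce1b, Lce1h and Dsg1b.

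The sham groups differed by site. In sham ear against sham back skin, 16 of the 33 genes were called higher and 9 lower, against 15.6% and 14.1% of all rows, in a comparison that shares its sham arrays with the HDM comparisons. All 12 LCE1 genes were called higher in ear, with a median difference of 1.65 and a range from 1.24 for Lce1m to 2.76 for Lce1g. Lce1g ran from 15.32 to 16.27 in sham ear against 11.91 to 14.68 in sham back skin, without overlap (2.76 ± 0.29, adjusted p = 6.89e-09), and Lce1f and Lce1h had 2.40 ± 0.30 and 2.32 ± 0.26. The groups did not overlap for 8 of the 12, while Lce1c, Lce1d, Lce1e and Lce1m overlapped. The share of all rows without such overlap was not determined. Lor was also higher in ear, by 1.38 ± 0.38 (adjusted p = 0.0061), as were Cldn23 by 1.04 ± 0.20, Dsg1b by 0.67 ± 0.16 and Dsg1a by 0.82 ± 0.31, a call that was lost with control rows kept (adjusted p = 0.0506).

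Several other envelope genes were lower in sham ear. Casp14 differed most, at -3.60 ± 0.44 (adjusted p = 9.06e-08), followed by Ivl at -2.83 ± 0.23 (adjusted p = 2.45e-11) and Cnfn at -2.01 ± 0.42 (adjusted p = 0.000365). Blmh had -1.12 ± 0.26, Cdsn -0.91 ± 0.15, Tgm1 -0.80 ± 0.23, Cldn1 -0.66 ± 0.23, Asprv1 -0.65 ± 0.16 and Dsc1 -0.42 ± 0.14, all called lower. Tgm3 and Tgm5 were not called, nor was any LCE3 gene in the fit to all 32 arrays. The LCE3 differences lay between -1.38 and -0.05, and Lce3b, Lce3e and Lce3f were below background in both sham groups. When only the 16 sham arrays were fitted, Lce3a (-1.38, adjusted p = 0.0389) and Lce3d (-1.14, adjusted p = 0.0231) were called lower in ear. All 14 measured hair genes were also called lower in sham ear, with a median of -8.80. Of the other marker lists, 4 of 6 basal keratinocyte genes were called higher in sham ear (median 1.15). Of the sebaceous gland genes, 4 of 7 were higher (median 1.37) and 1, Awat2, was lower (-1.56, adjusted p = 0.000101). Of the cartilage genes, 5 of 6 were higher (median 2.48), among them Col2a1, which was below background on every array. In sham ear, 3 of 7 skeletal muscle genes and 2 of 6 neutrophil genes were called lower. The shares of all rows called in this comparison were 15.6% higher and 14.1% lower. The part of these marker differences in the results for the envelope genes between the sham sites was not tested. With array medians made equal, Dsc1 (-0.29, adjusted p = 0.109) and Cldn1 (-0.54, adjusted p = 0.0522) were no longer called. Dsc1 was also not called without sham back mice 1 and 2 (-0.30, adjusted p = 0.119) or when only the 16 sham arrays were fitted (adjusted p = 0.0531).

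**Figure D5:**
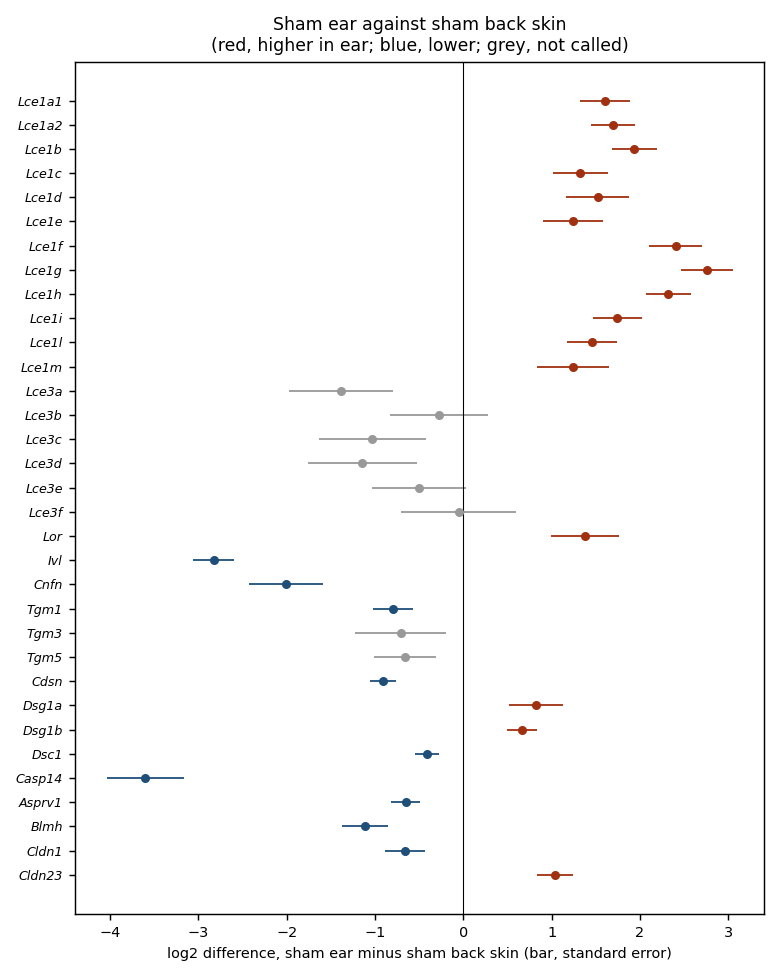
Log2 difference between sham ear and sham back skin for the 33 genes, points with standard errors, 8 mice per group. The 12 LCE1 genes all lie at 1.24 or above, Casp14 at -3.60 and Ivl at -2.83, and the grey LCE3 points were not called.

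Of 61 other cornification genes, 55 were measured. In back skin 15 of the 55 (27.3%) were called higher and 7 (12.7%) lower, against 6.18% and 8.56% of all rows. In ear 15 (27.3%) were called higher and 10 (18.2%) lower, against 16.4% and 15.5%. For the difference between sites 5 (9.09%) were called in each direction, against 6.77% and 3.37%, and between the sham sites 14 (25.5%) were higher and 16 (29.1%) lower in ear, against 15.6% and 14.1%. None was called in opposite directions by HDM at the 2 sites. Of the 15 measured envelope precursors and plakins outside the list, 3 were called higher and 4 lower at each site. Repetin (Rptn), a fused S100-type envelope precursor, rose by 3.85 ± 0.55 in back skin (adjusted p = 7.74e-06) and by 6.46 ± 0.55 in ear (adjusted p = 2.83e-10), more in ear by 2.62 ± 0.78. Filaggrin 2 (Flg2), of the same protein family, fell by 4.10 ± 1.18 in back skin (adjusted p = 0.0162) and by 6.79 ± 1.18 in ear (adjusted p = 3.5e-05), where its HDM values ran from 5.68 to 16.48 against 18.00 to 18.53 in sham. Hornerin (Hrnr) fell by 1.71 ± 0.35 in back skin (adjusted p = 0.000901).

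Among keratins of the suprabasal layers, Krt77 ran from 16.75 to 18.27 in sham back skin and from 4.39 to 12.09 in HDM back skin, where 6 of 8 arrays were above background, a difference of -9.93 ± 0.78 (adjusted p = 1.29e-10). Krt77 also fell in ear, by 4.81 ± 0.78, and the effect in ear minus that in back skin was 5.12 ± 1.10 (adjusted p = 0.00286). In ear it ran from 8.56 to 11.87 in sham and from 4.76 to 7.24 in HDM, where 7 of 8 arrays were above background. The lower sham level in ear left less room for a fall, so the size of this site difference is uncertain. Krt1, the main suprabasal type II keratin, rose by 2.06 ± 0.22 in ear (adjusted p = 2.24e-08) and had 0.17 ± 0.22 in back skin. The difference between sites was 1.88 ± 0.31 (adjusted p = 0.000225). In sham, Krt1 ran from 18.35 to 19.81 in back skin and from 16.57 to 18.05 in ear. The highest value of the data is 19.93, which left little room for a rise in back skin, so the size of this site difference is uncertain. Further calls among the 3 largest were Sdr9c7, an enzyme of the envelope lipids, and Klk7, a protease that cleaves corneodesmosomes, in back skin (2.14 ± 0.29 and 1.68 ± 0.16), and the desmosomal cadherin Dsc2 (2.40 ± 0.60) and the tight junction gene Cldn8 (-2.02 ± 0.34) in ear. The HDM effect was lower in ear than in back skin for the secreted keratinocyte proteins Krtdap, Sbsn and Dmkn, at -1.28 ± 0.32, -1.04 ± 0.29 and -1.01 ± 0.29. Between the sham sites, Krt2 lay between 19.38 and 19.93 in ear and was above background in 2 of 8 back samples, a fitted difference of 15.49 ± 0.44 whose size is uncertain. Aloxe3 (2.71 ± 0.32) and the LCE1 relative Lce1j (2.40 ± 0.28) were also higher in sham ear, and Crnn (-9.67 ± 0.88, above background in 1 of 8 sham ears), Krt77 (-6.81 ± 0.78) and Rptn (-5.0 ± 0.55) were lower.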

How the data were processed

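Per the submitters' processing notes, the authors used the Transcriptome Analysis Console and RMA to make the deposited log2 values; no version, genome build or annotation release is given in the sources used here. The values reach 19.93, which is wide for RMA, and whether they were rescaled could not be told; the sizes of differences rest on the scale as deposited. The design text names the Mouse Clariom D assay. Of 28846 rows, 6640 array controls were left out. Symbols came from the platform annotation, and the row with the highest mean stood for a symbol, though each envelope gene had 1.

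Group means over the 32 arrays were fitted by limma (version 3.58.1, R 4.3.3), with lmFit, eBayes, two-sided tests and no covariate, and p-values were adjusted by the Benjamini-Hochberg method over 22206 rows. Pooling the spread of all groups may make errors in ear too small, since HDM ears varied more, and others too large. Where a gene lay under the negative control median on all 8 arrays of a group, its fold is a bound against the mean background of the group. The fit was checked on simulated data.

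Alternatives were another scaling, dim rows left out, values raised to background, control rows kept, array weights by group, fewer arrays, sham back mice 1 and 2 left out, and a replicate block. Every envelope gene is named; of the other cornification genes, those called in opposite directions at the 2 sites and the 3 largest called differences per direction and comparison were to be named. Genes, lists and alternatives were chosen with earlier results of these data known. Start site windows are from RefSeq (GRCm38.p6). P-values measure the spread between these mice.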

Additional observations from a re-analysis of the deposited data

Results flagged for a closer look

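By the direct test in limma, the HDM effect differed between ear and back skin for 4 of the 33 genes. P-values were Benjamini-Hochberg adjusted over all rows. With 2 genes in each direction, 6.06% were called higher and 6.06% lower in ear, against 6.77% and 3.37% of all rows. The share called higher was thus close to that of all rows. The effect was higher in ear for Cnfn by 2.13 (adjusted p = 0.0189) and for Tgm3 by 2.48 (adjusted p = 0.0259). Without sham back mice 1 and 2, Cnfn had 1.86 (adjusted p = 0.0543). The effect was lower in ear for Lce1f, at -1.50 (adjusted p = 0.022), and for Lce1g, at -1.49 (adjusted p = 0.0182). Single arrays lay far from the other 7 of their group, by Dixon's ratio, for 4 of the 132 combinations of gene and group that were examined; chance gives such a value in about 1 of 20. Lce1e was low in sham ear mouse 4, at 8.10 with the nearest value at 9.15. Lor was high in sham ear mouse 2, at 14.23 with the nearest at 13.53. Cnfn was low in sham back mouse 7, at 10.78 with the nearest at 12.18. Cldn1 was low in HDM back mouse 4, at 16.16 with the nearest at 16.51. By this ratio no array was flagged for an LCE3 gene. The ratio uses the gap to the nearest value, so 2 arrays that stand apart together hide each other. Sham back mice 1 and 2 were such a pair for Lce3c, at 9.77 and 9.41, against 6.73 to 7.91 on the other arrays of that group.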

How the results depend on the processing

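Precision is limited by the number of arrays, and signal under the negative controls limits Lce3b, Lce3e, Lce3f and, in part, Lce3a and Lce1m. Members called lower in back skin went from 5 to 3 without sham back mice 1 and 2. For the difference between sites, members called higher went from 2 to 4 with values raised to background and to 1 without these mice, and members called lower from 2 to 4 with array medians made equal, to 4 with values raised and to 7 without the mice. With values raised to background, 15862 rows were called in ear, 12103 for the difference between sites and 15246 between sham sites, against 7076, 2251 and 6593, because a floor that differs between arrays then enters every dim row. The direction turned for small differences. In back skin, Lce1a1, Lce1a2 and Lce1d had 0.10, 0.03 and 0.02 with medians equal and 0.23, 0.22 and 0.28 without the mice. For the difference between sites, Lce3e had -0.66 with values raised, Lce3f and Cldn23 -0.02 and -0.03 with medians equal, and Tgm5 -0.12 without the mice. Between sham sites, Lce3b, Lce3e and Lce3f had 0.48 with values raised, and Lce3f 0.07 with medians equal and 0.05 without the mice. Making medians equal moved the median of all rows to 0.131 in back skin, -0.134 for the difference between sites and 0.162 between sham sites, and the higher share of the called rows from 41.9% to 63.6%, 66.8% to 45.8% and 52.6% to 67.3%. Other causes were not tested. The data did not show that mouse numbers pair the samples, and the labels do not settle it: correlations of same-numbered back skin and ear arrays lay between -0.113 and 0.140, and 1 of 16 was over 0.1. With the replicate block (agent and mouse number, consensus correlation 0.0148), all 132 member results kept their direction and call, and 3276, 7078, 2325 and 6663 rows were called. Choosing another row for a gene gave no value, since each had 1, and the difference between sites needs all 4 groups, so it was not refitted on 16 arrays.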
